A study of Mus musculus with 6 samples.

Results

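The genes of interest are 10 lineage genes of innate lymphocytes, 6 that mark group 2 innate lymphoid cells (ILC2) and 4 that mark natural killer (NK) cells, out of 19848 genes in the RNA table. They were chosen by name, as genes known for these lineages, with earlier results of these data known. The p-values given for them below are therefore not those of a list fixed before the data were seen. The genes were followed in the 4 deposited cell classes called ILCs, NKCells, CD4+ and CD8+. Those classes held 1281 of 13052 cells, namely 330 ILCs, 9 NKCells, 214 CD4+ cells and 728 CD8+ cells. The ILC2 genes were Gata3, Il1rl1, Rora, Areg, Il13 and Il7r, and the NK genes were Ncr1, Klrb1c, Eomes and Tbx21.

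The cells were immune cells enriched on a Percoll gradient from whole brains of female C57BL/6 mice, and were profiled by CITE-seq, which reads the RNA and the bound antibody tags of the same single cell. A total of 24 mice, 6 per group, were combined into 12 pools, 3 per group. The groups were young control (12 weeks, vehicle, intact gut microbiota), young antibiotic (12 weeks, depleted gut microbiota), aged control (72 weeks, vehicle) and aged antibiotic (72 weeks, depleted). Which antibiotics were given is not stated in the labels. Young pools shared 1 well of the droplet instrument and aged pools another, so age and well cannot be told apart. Hashtags, the antibody tags that mark a pool, also divided the arms in the same way in both wells, so hashtag and arm cannot be told apart. Replicate numbers of the pools were given in hashtag order and pair nothing. The p-values below measure the spread between pools.

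Innate lymphoid cells lack the rearranged antigen receptors of T cells and B cells and answer directly to cytokines. ILC2 depend on the transcription factors GATA3 and ROR alpha and on interleukin 7, respond to interleukin 33 through the receptor ST2, and release interleukin 13 and amphiregulin. NK cells kill target cells, depend on the T-box factors T-bet and Eomes, and carry activating receptors such as NKp46 and NK1.1. In the brain, ILC2 are known from the meninges and the choroid plexus. T cells use several of the same regulators, so only some of the 10 genes separate ILC2 or NK cells from CD4+ and CD8+ T cells.

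The promoters of 3 members are shown because GATA and T-box factors are themselves members. All 10 members had an entry in the RefSeq promoter table (GRCm38.p6, 300 bases around a start site, most of them upstream), with 12 promoters in all. The letters AGATAA, a form of the GATA motif, and GTGTGA, the core of the T-box half-site, were searched on both strands, and matches are in capitals. AGATAA was present in 11.2% of all 32851 promoters and in those of 2 members, Il1rl1 and Il13. GTGTGA was present in 14.5% of all promoters and in those of 2 members, Ncr1 and Il7r. A match is a description of these letters only. The first Il1rl1 promoter lies at chr1:40429320-40429619 on the plus strand, the Il13 promoter at chr11:53634653-53634952 on the minus strand, and the first Ncr1 promoter at chr7:4337465-4337764 on the plus strand.
Il1rl1 promoter: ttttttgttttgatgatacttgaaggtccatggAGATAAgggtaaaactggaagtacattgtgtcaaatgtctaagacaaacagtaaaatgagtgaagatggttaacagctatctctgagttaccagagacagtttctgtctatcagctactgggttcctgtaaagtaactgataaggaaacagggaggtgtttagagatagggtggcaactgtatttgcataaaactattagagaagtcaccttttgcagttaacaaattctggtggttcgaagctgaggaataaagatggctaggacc
Il13 promoter: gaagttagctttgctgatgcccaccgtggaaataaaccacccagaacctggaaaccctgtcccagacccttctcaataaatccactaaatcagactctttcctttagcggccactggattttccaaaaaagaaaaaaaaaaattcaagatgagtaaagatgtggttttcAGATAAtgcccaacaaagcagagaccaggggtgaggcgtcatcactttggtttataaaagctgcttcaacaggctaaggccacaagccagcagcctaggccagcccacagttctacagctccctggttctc
Ncr1 promoter: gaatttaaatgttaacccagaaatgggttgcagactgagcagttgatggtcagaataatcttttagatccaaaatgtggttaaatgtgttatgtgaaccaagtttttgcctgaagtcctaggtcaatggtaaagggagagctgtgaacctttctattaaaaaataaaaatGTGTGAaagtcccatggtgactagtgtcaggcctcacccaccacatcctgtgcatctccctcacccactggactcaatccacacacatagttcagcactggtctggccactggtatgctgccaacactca
The antibody against NK1.1, the protein product of Klrb1c, carried this barcode, which gives a protein readout of 1 member.
NK1.1 antibody barcode: gtaacattactcgtc

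Each well contributed 6526 cells, and pools held 760 to 1590 cells of all classes. The RNA values are corrected counts, whole numbers made by the authors with SCTransform. A level below is the mean corrected count per cell. Median raw UMI totals were 6237 in ILCs, 5570 in NKCells, 5972 in CD4+ cells and 7097 in CD8+ cells, against 6934 in microglia, the class used as the background because it should lack NK genes. Between the wells, 59 cell barcodes were shared, and 6 cells of the 4 classes carried one.

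The labels of the classes were first compared with their defining genes. Klrb1 was above 0 in all 9 NKCells, while 0 of 1272 ILCs, CD4+ and CD8+ cells had that gene. It was not counted in the classes outside these 4. The ILCs class, in turn, held 160 cells with Klrb1c and 154 with Ncr1, so most cells with either of these NK receptor genes carried the label ILCs. By contrast, Cd3e, a subunit of the T cell receptor complex, was above 0 in 86.4% of CD4+ and 94.2% of CD8+ cells, in 20.9% of ILCs and in 0 of 9 NKCells. ILCs of 1 pool stood apart. In aged control pool 2, 44 of 87 ILCs had Cd8a or Cd8b1, the CD8 chains of cytotoxic T cells, whereas the other 11 pools had 0 to 3 such cells each.

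**Figure D1:**
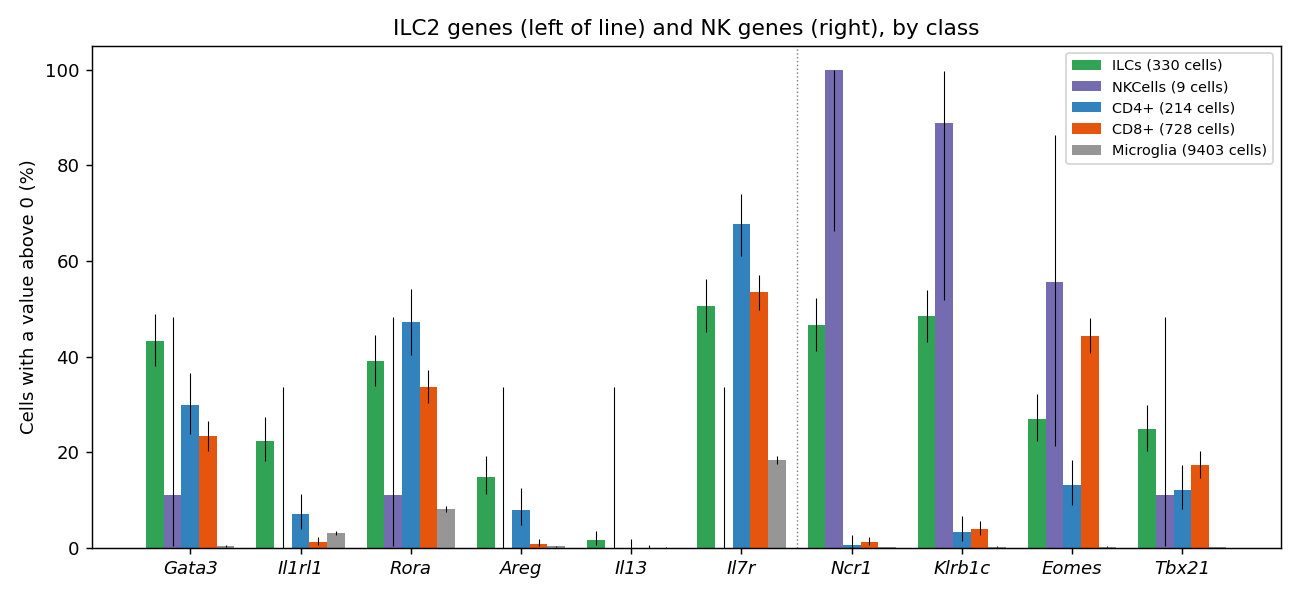
Percent of cells with a value above 0 (vertical axis) for each of the 10 genes (horizontal axis) in 5 classes, with exact binomial 95% intervals that cover counting error only. Il1rl1, Areg and Il13 were highest in ILCs, Rora and Il7r in CD4+ cells, and Ncr1 and Klrb1c in NKCells and ILCs; the intervals of the 9 NKCells are wide.

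Among the ILC2 genes, Il1rl1, Areg, Il13 and Gata3 were above 0 in a larger share of ILCs than of either T cell class. These shares are descriptions, since the classes may have been drawn from the same RNA. Il1rl1, which encodes ST2, was above 0 in 22.4% of ILCs (exact 95% interval 18.0% to 27.3%), 7.01% of CD4+ cells, 1.24% of CD8+ cells and 3.05% of microglia. The share of CD8+ cells was below that of microglia. Microglia had Il1rl1 more often than Gata3 or Areg, and whether these low shares are background was not tested. Areg, which encodes the growth factor amphiregulin, was above 0 in 14.8% of ILCs, 7.94% of CD4+ cells and 0.824% of CD8+ cells, against 0.298% of microglia. Il13, which encodes interleukin 13, was above 0 in 5 ILCs (1.52%) and in 0 of the cells of the other 3 classes, a count that allows a detected share of up to 1.4% of CD4+, 0.412% of CD8+ and 33.3% of the few NKCells. These limits are for cells with a read of the gene, not for cells that express it.

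The regulators and the interleukin 7 receptor were shared with T cells. Gata3 was above 0 in 43.3% of ILCs, 29.9% of CD4+ and 23.4% of CD8+ cells, and in 0.319% of microglia. Rora, which encodes ROR alpha, was above 0 in 39.1% of ILCs, 47.2% of CD4+ and 33.7% of CD8+ cells, against 8.10% of microglia. Il7r was above 0 in 50.6% of ILCs, 67.8% of CD4+ and 53.4% of CD8+ cells, against 18.3% of microglia. In levels, Gata3 and Rora were nonetheless highest in ILCs, at 1.55 and 1.92 per cell over all cells, against 0.701 and 1.06 in CD4+ and 0.315 and 0.516 in CD8+ cells.

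The NK genes divided into receptors and factors. Ncr1, which encodes NKp46, was above 0 in 9 of 9 NKCells and 46.7% of ILCs, but in 0.467% of CD4+ cells, 1.1% of CD8+ cells and 0.128% of microglia. Klrb1c was above 0 in 88.9% of NKCells, 48.5% of ILCs, 3.27% of CD4+ and 3.98% of CD8+ cells, and in 0.149% of microglia. Eomes was instead widespread in CD8+ cells, at 44.4%, against 55.6% of NKCells, 27.0% of ILCs and 13.1% of CD4+ cells. Tbx21, which encodes T-bet, was above 0 in 24.8% of ILCs, 17.3% of CD8+, 12.1% of CD4+ cells and 11.1% of NKCells. Klrb1c belongs to a family of similar genes, and how reads shared with its relatives were counted is not given in the sources used here.

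A cell was said to hold the ILC2 set or the NK set when at least 2 genes of that set were above 0. ILCs fell into 135 cells with the NK set only, 107 with the ILC2 set only, 26 with both and 62 with neither. Il1rl1 (74 ILCs) and Ncr1 (154 ILCs) were found together in 2 cells, and Il1rl1 and Eomes in 0 cells. Of the 154 cells with Ncr1, 147 also had Klrb1c (95.5%), and of the 74 cells with Il1rl1, 66 also had Gata3 (89.2%) and 70 had Il7r (94.6%). All 5 cells with Il13 had Gata3, Rora and Il7r, and 0 of them had an NK gene. Of the 62 cells with neither set, 38 had Cd8a or Cd8b1, against 18 of the other 268 ILCs.

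**Figure D2:**
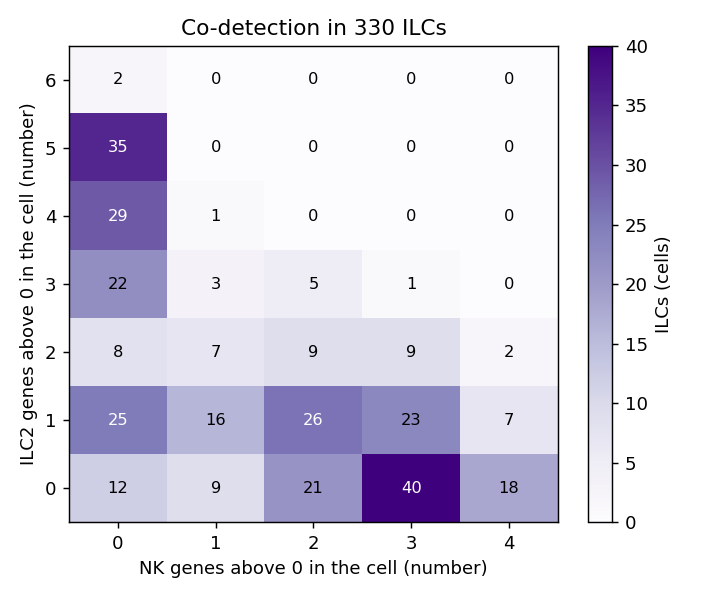
Number of ILCs by how many of the 4 NK genes (horizontal axis) and how many of the 6 ILC2 genes (vertical axis) were above 0 in the cell. The fullest squares are 40 cells with 3 NK genes and 0 ILC2 genes and 35 with 5 ILC2 genes and 0 NK genes, while 26 cells had 1 ILC2 gene with 2 NK genes and 23 had 1 with 3.

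The same sets were then counted in T cells. The ILC2 set was held by 48.1% of CD4+ and 30.9% of CD8+ cells, against 40.3% of ILCs and 2.59% of microglia. The NK set was held by 48.8% of ILCs, 8 of 9 NKCells, 9.48% of CD8+ cells and 1 of 214 CD4+ cells. It was held by 0 of 9403 microglia, which allows a share of up to 0.0319%. Over the 4 classes together, 462 cells held the ILC2 set and 239 the NK set.

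The antibody tags gave a protein readout that the gene sets did not use. The sets were not independent of it, since Klrb1c, the gene of NK1.1, is in the NK set. Klrb1c was above 0 in 97.8% of ILCs with the NK set only and 2.80% of those with the ILC2 set only. NK1.1 tags were compared between ILCs with the NK set only and ILCs with the ILC2 set only, within each pool, a comparison chosen after the data were seen. In young control pools, NK set cells carried 121, 113 and 97.2 tags per cell and ILC2 set cells 29.5, 42.6 and 48.6. In young antibiotic pools the values were 137, 85.7 and 101 against 21.0, 17.5 and 58.0. In every young pool the NK set cells were higher, though these ILC2 values rest on 2 to 7 cells each. In aged control pools NK set cells carried 20, 23.9 and 31 tags and ILC2 set cells 6.67, 11.8 and 13.6. In aged antibiotic pools 1 and 3 the values were 29.0 and 24.9 against 10.0 and 15.6, and pool 2 had 0 cells with the NK set only. NK set cells were higher in 11 of 11 pools, by 2.79-fold in the geometric mean (range 1.60 to 6.54), with an exact two-sided sign-flip permutation p of 0.000977, the smallest that 11 pools allow. Within the wells the ratio was 3.27 in young pools (6 of 6, exact p = 0.0312) and 2.30 in aged pools (5 of 5, exact p = 0.0625), both the smallest p possible. Tags were scarcer in the aged well, at a mean of 365 per ILC over all antibodies against 2295 in the young well. As a share of all tags the ratio was 2.92. T cells carried NK1.1 tags too. Young CD4+ and CD8+ cells averaged 67.8 and 72.7, against 109 in NK set ILCs and 40.3 in ILC2 set ILCs. In the aged well these values were 17.1, 22.0, 26.2 and 12.0. Over all antibodies the young T cells carried more tags than ILCs, at a mean of 4962 per CD4+ and 3732 per CD8+ cell. The antibody against CD335, the product of Ncr1, gave 0 tags in all 155 young ILCs, so it was not read.

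**Figure D3:**
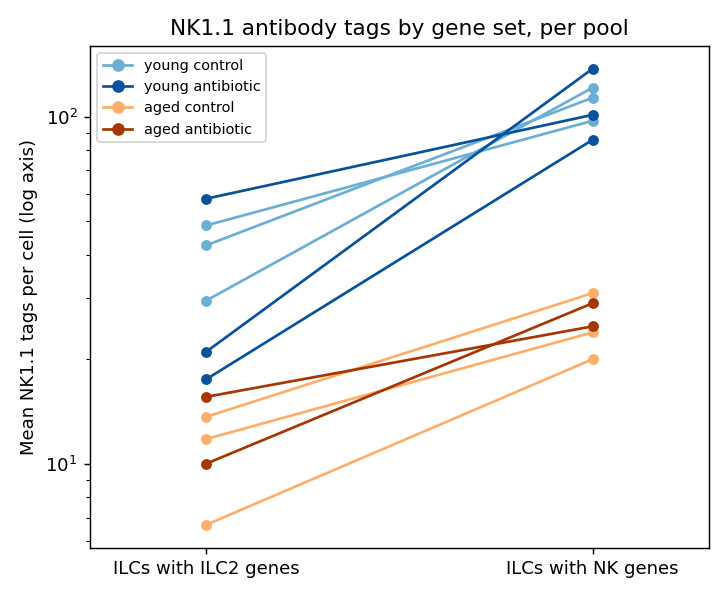
Mean NK1.1 antibody tags per cell (vertical axis, logarithmic) in ILCs with the ILC2 set only and ILCs with the NK set only (horizontal axis), with a line for each of 11 pools, coloured by group. Every line rises towards the NK set, and the young pools lie above the aged pools of the same set.

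The makeup of the ILCs class differed between the wells. In young control pools, 84.4%, 68.0% and 65.6% of ILCs held the NK set, and in young antibiotic pools 77.8%, 72.2% and 83.3%. In aged control pools the shares were 18.2%, 18.4% and 32.3%, and in aged antibiotic pools 1 and 3 they were 37.5% and 40.0%. Aged antibiotic pool 2 had 5 ILCs and was left out of tests, which needed at least 10 cells. All young pools lay above all aged pools. The aged minus young difference over both arms, another comparison chosen after the data were seen, was -44.4 percentage points (exact two-sided permutation p = 0.005, the smallest of 200 arrangements, adjusted over 2 comparisons p = 0.005). It was -22.2 points when the set needed at least 3 genes and -34.2 with values thinned to 2000 per cell.

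The ILC2 set moved the other way. In young control pools it was held by 28.1%, 32% and 25% of ILCs, and in young antibiotic pools by 16.7%, 22.2% and 20%. In aged control pools the shares were 54.5%, 42.5% and 74.2%, and in aged antibiotic pools 1 and 3 they were 75.0% and 56.0%. Again the ages did not overlap, and aged minus young was 37.3 percentage points (exact two-sided permutation p = 0.005, adjusted p = 0.005). It was 23.1 points when 1 gene sufficed. Without ILCs that had a CD8 gene, the differences were -45.8 points for the NK set and 42.0 for the ILC2 set. In ILCs with the ILC2 set only, 12 T cell marker genes had a median summed level of 25.3 over young pools (3.43 to 46.5). The median was 5.4 over aged pools (3.7 to 16.3) and 40.5 in young CD4+ cells. The part of T cells in these shares was not tested. A share is relative. ILCs with the NK set only numbered 104 in the young and 31 in the aged well, and those with the ILC2 set only 25 and 82. These numbers are relative too, since the deposited cells total 6526 in each well. How many cells were drawn from each brain is not given in the sources used here.

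**Figure D4:**
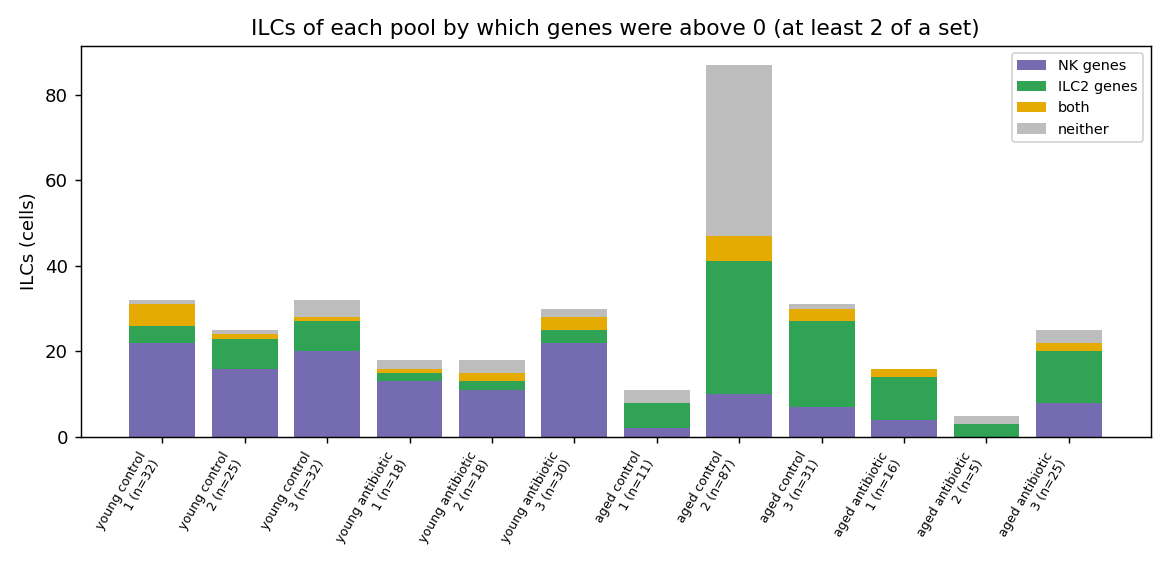
Number of ILCs in each of the 12 pools (vertical axis), divided by whether a cell had at least 2 NK genes, at least 2 ILC2 genes, both or neither. NK set cells make up most of each young bar, ILC2 set cells exceed them in each aged bar, and 40 cells of aged control pool 2 held neither set.

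The question of how age goes with the single genes was asked in control pools, aged minus young, with limma on the log2 pool mean of each class. Of 8335 genes tested in ILCs, 76 passed at an adjusted p under 0.05 (0.912%), 32 of them higher in aged pools and 44 lower. The count was 29 without young control pool 1, 47 without young antibiotic pool 3 and 49 without young control pool 3. Of the members, 9 were tested, since Il13 was below the minimum mean of 0.05, and 5 passed. Gata3, Il1rl1 and Areg were higher in aged pools, and Ncr1 and Klrb1c were lower. The median log2 difference was 1.55 over the 5 ILC2 genes tested and -1.51 over the 4 NK genes, against -0.10 over all genes tested.

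The level of Klrb1c was 4.31, 3.32 and 3.09 per ILC in young control pools and 0.364, 0.736 and 1.1 in aged control pools. The groups did not overlap, and aged pools were lower by a log2 difference of -2.32 ± 0.28 (SE; limma adjusted p = 0.00012). Ncr1 stood at 4.31, 3.48 and 3.69 in young and 1.18, 0.954 and 1.52 in aged control pools, a log2 difference of -1.63 ± 0.24 (adjusted p = 0.000751). For both genes all 6 young pools, of either arm, were above the 5 aged pools of at least 10 cells. How many of all genes tested would separate pools in this way, here or in the comparisons below, was not counted.

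Gata3 was at 0.688, 0.560 and 1.47 in young and 3.00, 1.71 and 3.16 in aged control pools, without overlap (log2 difference 1.55 ± 0.34, adjusted p = 0.0274). Areg was at 0.125, 1.16 and 0.5 in young and 3.00, 1.38 and 5.35 in aged control pools, also without overlap (2.55 ± 0.57, adjusted p = 0.0279). Il1rl1 was at 0.25, 0.04 and 0.781 in young and 2.55, 0.713 and 2.16 in aged control pools. Here aged control pool 2 fell below young control pool 3, and the log2 difference was 2.54 ± 0.60 (adjusted p = 0.0408). Leaving out 1 pool at a time moved the adjusted p of Gata3 to between 0.00739 and 0.15, and it did not pass without young control pool 1 or 2 or aged control pool 1 or 3. For Areg the range was 0.00544 to 0.241, and it did not pass without young control pool 1 or 3, young antibiotic pool 3 or aged control pool 1 or 3. For Il1rl1 the range was 0.00717 to 0.226, and it passed only without young control pool 3, young antibiotic pool 1 or aged control pool 2. Ncr1 and Klrb1c passed whichever single pool was left out (highest adjusted p = 0.0112 and 0.00314). When pools of at least 5 cells were admitted, which added the 5 ILCs of aged antibiotic pool 2, these 5 genes no longer passed (adjusted p of 0.103, 0.103, 0.158, 0.893 and 0.504 for Gata3, Areg, Il1rl1, Ncr1 and Klrb1c). That pool is not a control pool, so it entered through the spread fitted over all 4 groups and not through the difference itself. Ncr1 and Klrb1c were at 0 in it.

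The other 4 members tested did not pass. Rora differed by 0.99 ± 0.40 and Il7r by 0.88 ± 0.35 (log2, adjusted p = 0.414 and 0.421). Eomes differed by -0.69 ± 0.48 and Tbx21 by -1.38 ± 0.53 (adjusted p = 0.769 and 0.386). Eomes ranged from 0.5 to 0.719 in young control pools and from 0.0909 to 1.05 in aged control pools, with aged control pool 2 the highest.

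**Figure D5:**
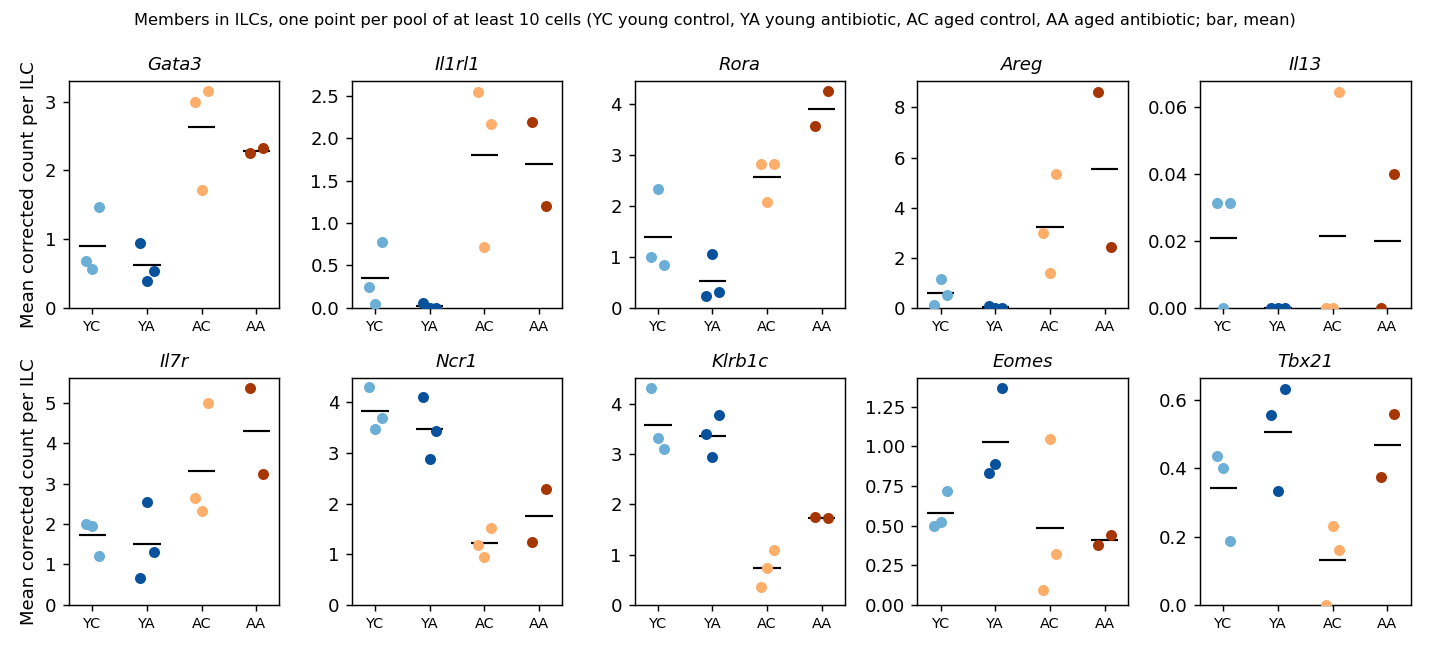
Mean corrected count per ILC (vertical axes, each on its own scale) for the 10 members in the 4 groups (horizontal axes), with a point per pool of at least 10 cells and a bar at the mean. Ncr1 and Klrb1c are lower, and Gata3 and Areg higher, in every aged pool than in every young pool. The share of all genes that separate in this way was not counted.

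Other genes of both lineages were read from lists, also chosen with earlier results of these data known. The NK list of 36 genes had 33 tested in ILCs, of which 16 were lower and 0 higher in aged control pools, with a median log2 difference of -1.36. Klrk1, which encodes the receptor NKG2D, fell by 1.89 ± 0.23 (adjusted p = 0.00012), Klre1, another lectin-like receptor, by 1.55 ± 0.21 (0.000452), and Fcer1g, a signalling adaptor, by 1.37 ± 0.19 (0.000519). The ILC2 list of 34 genes had 29 tested, of which 5 were higher and 0 lower, with a median of 0.67. Csf2, which encodes the cytokine GM-CSF, was higher by 2.84 ± 0.47 (adjusted p = 0.00221), Ly6a, a surface protein, by 2.70 ± 0.49 (0.00475), and Calca, the gene of the neuropeptide CGRP, by 3.25 ± 0.59 (0.00487). With pools of at least 5 cells, 3 genes in all were lower in ILCs, and Klrk1, Klre1, Fcer1g and Csf2 no longer passed (adjusted p of 0.345, 0.916, 0.257 and 0.0747). Ly6a and Calca did not pass with pools of at least 20 cells (adjusted p = 0.168 and 0.0653), nor Calca without young control pool 1 (0.0571). Of the lists for the related groups ILC1 and ILC3, 6 and 2 genes were tested and 0 passed. Of the 154 ILCs with Ncr1, 62 also had Eomes (40.3%). Whether ILCs with the NK set were NK cells or ILC1 was not tested.

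The same genes were then read within each kind of ILC. NK set cells were chosen for having NK genes, so likeness within them is in part fixed by that choice. In ILCs with the NK set only, Klre1 averaged 5.02 per cell in the 104 young and 5.48 in the 31 aged cells, with pool means of 3.54 to 5.73 and 3.50 to 6.00. Fcer1g averaged 19.3 and 18.4, with pool means of 15.1 to 21.2 and 15.5 to 20.8. Klrk1 averaged 7.27 and 5.65, with pool means of 6.32 to 8.77 and 3.50 to 6.75. All 3 ranges overlapped, and no test was made within these subsets. The aged mean was the higher for Tbx21 (0.51 young, 1.03 aged), the perforin gene Prf1 (4.3, 6.13) and the granzyme gene Gzma (34.6, 61.3), the last 2 named after their values were seen. Their pool ranges overlapped too, at 0.3 to 0.727 and 0 to 1.5, 1.85 to 6 and 1.5 to 8.5, and 22.1 to 53.6 and 0.5 to 104. The aged pool means of NK set cells rest on 2 to 10 cells each. In ILCs with the ILC2 set only, Ly6a had pool means of 0 to 2.50 in young and 2.81 to 6.80 in aged pools, which did not overlap. Calca had 0 to 0.714 against 1.60 to 7.10, likewise without overlap. Both genes were named for their age difference in ILCs of these same pools, so this is in part fixed by that choice. How many of all genes would not overlap in this way was not counted. The ranges of Csf2 overlapped (0 to 3 and 0 to 6.95), as did those of Gata3 (1.43 to 5.71 and 3.4 to 5), Il1rl1 (0 to 3.57 and 1.97 to 4.67) and Areg (0 to 4.14 and 3.87 to 13.4), which helped to choose the cells. These young means rest on 2 to 7 cells a pool. The summed level of the 12 T cell markers in the same ILC2 set cells was 3.43 to 46.5 in young pools (median 25.3) and 3.7 to 16.3 in aged pools (median 5.4), and its part in these differences was not tested.

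Markers of other cells also differed with age in ILCs. The immunoglobulin gene Igkc, a B cell marker, was higher in aged control pools by 4.14 ± 0.59 (limma adjusted p = 0.000519), with 1 of the 3 B cell markers tested passing. The summed level of the 6 B cell markers was 1.16 to 1.62 in young and 1.44 to 6.76 in aged pools. Genes of antigen presentation by MHC class II, which B cells among others express, were also higher, and were named after their values were seen. They were H2-Eb1 at 5.57 ± 0.88, H2-Aa at 5 ± 0.77, Cd74 at 4.91 ± 0.67 and H2-Ab1 at 4.52 ± 0.82 (log2, limma adjusted p of 0.00116, 0.00115, 0.000452 and 0.00487). Cd74 and Igkc differed in pattern. In aged control pools Cd74 was at 27.4, 7.59 and 13.3, and Igkc at 0.727, 3.84 and 0.613. In aged antibiotic pools 1 and 3 Cd74 was at 0.188 and 0.640, and Igkc at 0.688 and 0.720. Which cells carried the MHC class II genes was not tested. The neutrophil gene S100a9 had a log2 difference of -3.12 ± 0.72 (limma adjusted p = 0.0367, not passed when any 1 of 9 of the 11 pools was left out), with the 6 markers summing to 1.88 to 52.6 in young and 0.400 to 1.60 in aged pools. The neutrophil sum had a median of 2.19 in young and 0.603 in aged pools. S100a9 itself was at 31.9 in young control pool 1, against 1.00 and 1.28 in young control pools 2 and 3. The summed T cell markers overlapped, at 6.22 to 18.5 in young and 5 to 24.8 in aged pools, with 0 of 11 tested passing. Markers of mast cells and basophils, which also carry ST2, summed to 0.278 to 0.76 in young pools (median 0.672). In aged pools they summed to 0.494 to 19.9 (median 1.08). Of these markers 0 of 6 tested passed, and Mcpt4 and Tpsb2 were at 0. The part of these cells in the differences of the members was not tested.

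Age was also examined in T cells. In CD8+ cells, 20 of 8287 genes passed (0.241%), and 0 of the 8 members tested did. Il1rl1 and Il13 were below the minimum mean there. Eomes was at 0.581 and 1.29 in the young control pools and 1.04, 1.24 and 1.03 in the aged ones, which overlapped (log2 difference 0.32 ± 0.34, adjusted p = 0.770). From the lists, Vps37b (-1.14 ± 0.20, adjusted p = 0.0269) and Lef1 (-2.13 ± 0.36, 0.0226), a factor of naive T cells, were lower. This comparison rested on 2 young control pools. Without pool 1 of them 176 genes passed, and without aged control pool 1 none did (0 genes).

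In CD4+ cells 3 of 8241 genes passed (0.0364%), namely Eomes, Gzmk and Igkc, the last 2 named after their values were seen. Eomes was at 0 in both young control pools of at least 10 cells and at 0.467 and 1.15 in the 2 aged ones. It was also at 0 in the young antibiotic pool tested and at 0.467, 0.56 and 0.5 in the 3 aged antibiotic pools, so the ages did not overlap in pools of at least 10 cells. Among smaller pools, young antibiotic pool 2 (7 cells) was at 0.429, near the aged pools. Young control pool 2 and young antibiotic pool 3 were at 0, and aged control pool 1 was at 0.444. The fitted log2 difference in controls was 3.98 ± 0.64 (limma adjusted p = 0.0171), a value that depends on the added 0.05 because the young pools were at 0. With pools of at least 5 cells it was 3.75 (adjusted p = 0.300), and without aged control pool 3 the adjusted p was 0.833. It also did not pass without young control pool 1 (0.0796) or 3 (0.0743), aged control pool 2 (0.0894) or aged antibiotic pool 2 (0.138). Igkc, a B cell marker, moved with it, at 3.60 ± 0.60 (adjusted p = 0.0171), and its part was not tested.

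Depletion of the gut microbiota was compared next, as antibiotic minus control over both ages. In ILCs 1 of 8335 genes passed (0.012%), in CD8+ cells 1 of 8287 (0.0121%), and 0 members passed in either class. The CD8+ count was 122 without young control pool 1, 13 without young antibiotic pool 2, 4 without young antibiotic pool 3 and 2 without aged control pool 3. It was 0 without young antibiotic pool 1, aged control pool 1 or 2, or aged antibiotic pool 1 or 2, and 0 with pools of at least 5 cells. The ILCs count was 5 without young antibiotic pool 1, 4 without aged antibiotic pool 1 and 1 or 2 without each of the others. In CD4+ cells only 1 young antibiotic pool held at least 10 cells, so the contrast was not tested at that minimum, and with at least 5 cells 0 of 8265 genes passed (381 at an unadjusted p under 0.05).

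The gene in ILCs was Csf2, of the ILC2 list. Its level was 0.375, 0.560 and 0.156 in young control and 0.0556, 0 and 0.0333 in young antibiotic pools. In aged control pools it was 2.55, 1.57 and 4.58, and in aged antibiotic pools 1 and 3 it was 0.125 and 0.280. Antibiotic pools lay below control pools at both ages, with a log2 difference of -2.90 ± 0.36 (limma adjusted p = 0.000327). It passed whichever single pool was left out (adjusted p of 0.000152 to 0.00796), but not as the mean of log2(value + 1) over cells (adjusted p = 0.418). In ILCs with the ILC2 set only, Csf2 was above 0 in 44.4% of 18 young control and 0 of 7 young antibiotic cells, and in 42.1% of 57 aged control and 24.0% of 25 aged antibiotic cells. Of the NK list, 0 of 33 genes passed in ILCs. The gene that passed in CD8+ cells was Rbm3, a cold-induced RNA-binding protein (0.67 ± 0.09, adjusted p = 0.014), named after its value was seen. It did not pass where the CD8+ count was 0.

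The members' own values under antibiotics were as follows in ILCs. Tbx21 differed by 1.18 ± 0.39 and Klrb1c by 0.62 ± 0.21 on the log2 scale (unadjusted p = 0.00654 and 0.00749, adjusted p = 0.771 for both). Areg differed by -1.12 ± 0.43 and Il1rl1 by -1.05 ± 0.45 (unadjusted p = 0.0159 and 0.0281, adjusted p = 0.772 and 0.835). The other 5 members tested ranged from -0.43 for Rora to 0.50 for Eomes, with adjusted p of 0.854 or more. The 4 NK genes were above 0 and 4 of the 5 ILC2 genes below it, with medians of 0.56 and -0.43 against 0.06 over all genes.

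Whether the antibiotic effect differed between ages was tested as an interaction. In ILCs 4 genes passed (0.048%), namely Cd74, H2-Aa, Stmn1 and Nfkb1, named after their values were seen and none of them a member. Cd74 (-6.81 ± 1.00) and H2-Aa (-6.77 ± 1.15) had a negative difference, and Stmn1 (5.27 ± 0.92) and Nfkb1 (2.05 ± 0.39) a positive one. Cd74 was at 0.531, 0.240 and 0.56 in young control and 8.61, 0.778 and 0.433 in young antibiotic pools. It was at 27.4, 7.59 and 13.3 in aged control pools and 0.188 and 0.640 in aged antibiotic pools 1 and 3. The count was 1 without young control pool 3 and 7 without young antibiotic pool 2, aged control pool 3 or aged antibiotic pool 3. In CD8+ cells 0 of 8287 passed with limma (0%; 713 at an unadjusted p under 0.05). There the count was 57 without young control pool 1, and 0 or 1 without each of the others. Areg came nearest among the members in ILCs. Its level was 0.0556, 0 and 0 in young antibiotic pools, below all young control pools, and 8.62 and 2.44 in aged antibiotic pools, which overlapped the aged controls. The antibiotic effect in aged minus young was 3.63 ± 0.85 on the log2 scale (unadjusted p = 0.000326, adjusted p = 0.226). Rora (2.07 ± 0.59) and Klrb1c (1.39 ± 0.42) followed, with adjusted p of 0.514 and 0.610.

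The share of cells holding each set was the last comparison of the arms, with 6 shares tested and none passing. In ILCs the NK set differed by 10.5 percentage points, antibiotic minus control over both ages (exact two-sided permutation p = 0.08, adjusted over 6 p = 0.4), with 5.11 in young and 15.8 in aged pools. It was 4.00 points (exact p = 0.62) with pools of at least 5 cells, where the aged part was 2.89, and 16.8 points (exact p = 0.015, adjusted p = 0.09) when a set needed at least 3 genes. The ILC2 set in ILCs differed by -0.17 points (p = 0.98 by the same exact test), which combined -8.75 in young and 8.41 in aged pools, and by -9.99 points (exact p = 0.095) when 1 gene sufficed. In young pools all 3 antibiotic values lay below all 3 control values. In CD8+ cells the NK set differed by 2.83 points (exact p = 0.325, adjusted 0.65). In CD4+ cells the ILC2 set differed by 11.1 points. The young part of that difference rests on 1 antibiotic pool (56%) against 2 control pools (37.5% and 42.9%), so only its size is given. Over the 4 classes together the ILC2 set differed by -0.15 points (exact p = 0.925) and the NK set by -1.33 points (exact p = 0.715), both at an adjusted p of 0.98. In the 4 classes together, 35.4% to 52.9% of young control and 7.89% to 14.0% of aged control cells held the NK set. The CD8+ cells in this denominator numbered 53 in young control and 270 in aged control pools. As a share of all cells of the pool, NK set cells of the 4 classes made up 1.90% to 2.40% and 0.676% to 2.19%, which overlapped.

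The genes whose pattern was most like that of 4 members were read from 98 class-by-pool means over 9 classes, which share libraries and depth, so the correlations are descriptions across these means. For Ncr1 they were Klrb1a (Pearson r = 0.943), Klrb1c (0.932) and Klra9 (0.916), all in receptor families with similar copies. For Eomes they were Sh2d2a (0.884), Fasl (0.869) and Samd3 (0.865). For Il1rl1 they were Dach2 (0.815), Ccdc184 (0.796) and Gm20186 (0.779). Il13 rested on 5 ILCs among the 4 classes, and its nearest genes, Flicr (0.765), Olfr48 (0.734) and Htr1b (0.707), are therefore given as names only.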

How the data were processed

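RNA values, as the authors deposited them, are a score, namely corrected counts from SCTransform, whose sum per cell equalled the deposited SCT total in 13052 of 13052 cells and the raw UMI total in 62. It was therefore not tested as counts. Antibody tags and raw UMI totals were deposited by the authors as counts. Cell classes and hashtag calls were the authors' own, and doublets were not called again. Cell Ranger 3.0.2, Seurat 3.0.1 and mm10 are listed in the submitters' processing notes. Filters on cells and covariates of the correction are not given in the sources used here. Of the metadata, 35 columns played no role here.

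Each class was averaged per pool (pools of 10 or more cells), 0.05 was added before log2, genes averaging under 0.05 were dropped, and limma 3.58.1 in R 4.3.3 was fitted with a trended prior variance over all 4 groups, with Benjamini-Hochberg adjustment at 0.05. A fold change on this scale understates that of low genes. Shares were tested by exact permutation of pools within age or arm (numpy 2.4.6). Scripts were tested on simulated data. Intervals cover counting error only. Named genes were all members, up to 3 passing genes per list and direction, and the 3 genes most like 4 members. Members and lists were chosen with earlier results of these data known.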

Additional observations from a re-analysis of the deposited data

Results flagged for a closer look

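The class called Ly6CLow was outside the comparisons above and also held the members. Of its 634 cells, 8.36% held the NK set, against 0 of 9403 microglia, and above the 0.473% that a count of 0 would allow in this class. The ILC2 set was held by 12.1% of these cells, against 2.59% of microglia. Ncr1 was above 0 in 52 cells (8.20%) and Il1rl1 in 107 cells (16.9%). The class called BCells held the sets too. Of its 487 cells, 4.52% held the NK set and 6.16% the ILC2 set, with Ncr1 above 0 in 3.70% and Il1rl1 in 1.85%. The median raw UMI total was 8927 in Ly6CLow cells and 6934 in microglia. Groups of 3 pools were not tested for single outlying pools.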

How the results depend on the processing

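No paired analysis was possible because the replicate numbers follow the hashtags, which name other mice in each arm and age. Changing 1 choice at a time gave these counts of genes past the threshold. In ILCs the antibiotic count of 1 became 0 with the mean of log2(value + 1). The difference between ages, 4, became 0 without a filter on low values, 2 with pools of at least 5 cells, 8 with pools weighted by cells and 0 with the mean of log2(value + 1). The age count of 76 became 42 without a filter, 19 with at least 5 cells, 34 with at least 20 cells and 167 with weights. In CD8+ cells the antibiotic count of 1 became 2 without a filter, 0 with at least 5 cells, 3 with weights and 3 with the mean of log2(value + 1), the difference between ages of 0 became 1 without a filter and 1 with the mean of log2(value + 1), and the age count of 20 became 12 with at least 5 cells. In CD4+ cells the age count of 3 became 1 with a pseudocount of 0.5, and 0 without a filter, with at least 5 cells and with the mean of log2(value + 1). Leaving out 1 pool at a time, where a lone pool left in an arm is assumed to vary like the others, gave 1 to 5, 1 to 7 and 29 to 98 genes in ILCs (antibiotic, difference, age), 0 to 122, 0 to 57 and 0 to 176 in CD8+ cells and 0 to 7 in CD4+ cells. Among the shares, the ILC2 set in ILCs turned to 0.61 points with values thinned to 2000 per cell, the ILC2 set in CD4+ cells to -1.50 with at least 3 genes, the NK set in CD8+ cells to -2.02 with thinning, and the NK set in the 4 classes to 1.75 with at least 1 gene and 1.44 with at least 3. Without each pool in turn the shares ranged from -4.92 to 4.58 and -2.23 to 1.44 points for the ILC2 set in ILCs and the 4 classes, 7.36 to 14.9 in CD4+ cells, 8.70 to 13.4 and -4.28 to 1.28 for the NK set in ILCs and the 4 classes, and 1.08 to 4.59 in CD8+ cells, with none passing. The 2 age shares in ILCs kept their direction in each alternative run, from -50.8 to -22.2 points for the NK set and 23.1 to 42.0 for the ILC2 set (without 1 pool, -46.7 to -41.4 and 32.5 to 42.0), with p at or near the smallest possible throughout. Without 1 pool the NK1.1 log2 ratio was 1.35 to 1.56. Sizes of the antibiotic shares also moved without a change of sign: across settings the NK set in ILCs ran from 4.00 to 16.8 points, the ILC2 set in CD4+ cells was 2.77 with thinning, and the ILC2 set in the 4 classes reached -4.82 with at least 3 genes. The leave-out of ILCs with a CD8 gene, the age shares and the tag comparison were chosen after seeing the data. With at least 20 cells only the ILCs age comparison could be fitted.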
